A study of Mus musculus with 18 samples.

Results

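RNA abundance was compared between mouse bone marrow cells heterozygous for a Fabp4 knockout (HET, labelled Fabp4 heterozygous knockout) and wild-type cells (WT, labelled Fabp4 wild-type) that were sorted from what the labels call vitro bone marrow. The comparison covers 10506 autosomal genes, those with an FPKM of at least 1 in 3 of the 9 in vitro libraries, out of 10877 genes tested on all chromosomes and 22017 genes listed. Chromosomes X and Y were left aside by rule, with 320 and 4 tested genes. FPKM count sequenced fragments after scaling to transcript length and to the mapped fragments of the library. Each group held 3 libraries, and 3 further in vitro libraries of homozygous knockout cells (KO) entered the fit. The labels name no other allele, drug or stimulus, no strain, sex or age, and neither the sorted population nor the culture conditions. According to the design text there were 3 mice per genotype, and no library is tied to a mouse. Every library held transcripts typical of both sexes, as given below, so the 3 libraries of a group need not be 3 mice. A p-value here therefore reflects the spread from library to library, which may be technical. The series has 18 samples, and its title names Fabp4, the upkeep of leukemia stem cells and hematopoietic stem cells.

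Fabp4 encodes a small cytosolic protein that carries fatty acids and is best known from adipocytes and macrophages, where it ties lipid handling to inflammatory signalling. Bone marrow progenitors give rise to neutrophils and to monocytes, which become macrophages. Neutrophils load granules in a fixed order as they mature, with primary granule enzymes made by early precursors and secondary and tertiary granule proteins made later. Immediate early genes such as Fos are transcribed within minutes of a signal.

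The libraries were of similar size. Depth, estimated from the steps between low values, was 31.7 to 36.8 M fragments in WT and 30.3 to 35.1 M in HET. Libraries listed 16779 to 18029 genes above 0 and their Spearman coefficients over all genes were 0.962 to 0.970, with 0 identical pairs among 36. The pan-hematopoietic marker Ptprc was at 39.0 to 60.2 FPKM in the WT and HET libraries. The libraries held transcripts of progenitors, granulocytes, monocytes, mast cells, eosinophils, erythroid cells and megakaryocytes. The 3 progenitor markers (Kit, Cd34 and Flt3) summed to 110.7 to 138.3 FPKM in WT and to 94.7 to 110.3 in HET. Markers of B, T and NK cells, of stromal cells and of adipocytes summed to under 1 FPKM for each type in every WT and HET library. WT replicate 1 stood apart in neutrophil genes: the 7 neutrophil markers summed to 529 FPKM there and to 1712 at most in WT, against 2098 to 4238 in HET. Mast cell markers were low in WT replicate 1 too: Mcpt8 was at 545 FPKM there, against 1085 and 1427 in WT replicates 2 and 3.

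Fabp4 itself (chromosome 3, 10204342 to 10208616 in GRCm38) was too low to check the genotype labels. The WT libraries list it at 0, 0.0326 and 0.330 FPKM. HET replicate 2 lists it at 0.0676, and every other HET or KO library at 0. HET and WT overlapped (difference -0.0983 FPKM, p = 0.7 by an exact permutation test, two-sided, where 3 against 3 libraries cannot go below 0.1). Among the neighbouring genes, 28 within 10 Mb of Fabp4 were tested and 4 of them rose, with 0 falling. Of the 4, 3 passed the filter on low values through HET alone, so they had to differ and nothing is read from this count. These 4 were a predicted gene and Sirpb1a, Sirpb1b and Sirpb1c, myeloid receptor genes 5.17 to 5.59 Mb away whose near-identical copies make their values uncertain. By chromosome, the called share ran from 1.98% on chromosome 14 to 4.70% on chromosome 2, with 2.34% to 4.60% on the others. Fabp5, which encodes the fatty acid binding protein of the epidermis, was at 75.1, 93.6 and 100 FPKM in WT and at 76.7, 74.7 and 69.7 in HET. Its groups overlapped (log2 change -0.27, limma adjusted p = 0.137). Without WT replicate 1 Fabp5 passed the threshold (-0.39, adjusted p = 0.0239).

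Sex-linked transcripts moved with genotype. The X inactivation RNA Xist was at 31.4 to 49.6 FPKM in WT and 12.3 to 18.2 in HET, and the sum of 4 Y genes was 8.68 to 11.1 and 25.7 to 30.3. In KO, Xist was at 25.2 to 43.2 FPKM, which overlapped WT and lay above HET, and the Y sum was 16.1 to 18.1, between WT and HET. Every library thus held Xist and Y transcripts together, and the Y sums of the genotypes did not overlap. Whether the libraries of a genotype are separate mice or parts of a mixed-sex pool was not tested. For every autosomal difference between WT and HET, genotype and the sex mix of the libraries cannot be told apart. In bulk RNA, fewer cells of a type and less RNA per cell cannot be told apart either.

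Changes were mostly rises. By limma on log2(FPKM + 1), with p-values adjusted over all 10877 genes and a threshold of 0.05, 380 of 10506 autosomal genes were called (3.62%). Of these, 307 rose in HET (2.92% of the genes tested) and 73 fell (0.695%), so 80.8% of calls were rises, and 2454 genes (23.4%) had an unadjusted p under 0.05. Quantile normalization gave 249 rises and 158 falls (61.2% rises). There were 157 rises and 118 falls (57.1% rises) once the trends with transcript length and GC content, described at the end, were removed. A rise of at least 2-fold on the log2(FPKM + 1) scale was called for 54 genes and a fall of that size for 3. The 3 HET libraries lay above the 3 WT libraries for 17.4% of genes and below them for 11.7%, and all 380 called genes belonged to these. The median log2 change was 0.04 over all genes, 0.56 among the genes that rose and -0.46 among those that fell. The genes that rose were low in WT (median 5.94 FPKM) and those that fell were high (median 36.4 FPKM), against 9.51 FPKM for all genes. The filter on low values bears on this: 20 genes passed it through the HET libraries alone, with no WT or KO library at 1 FPKM. Of these 20, 19 were among the rises. Genes with fewer than 3 WT and KO libraries at that level also needed HET to pass. They are not in this count, and Fn1, Nos2 and Sdc1, named below, are among them. The number of calls rested on single libraries. It was 99 without HET replicate 3, 139 without HET 2, 178 without HET 1, 170 and 221 without WT 2 and WT 3, 235 and 258 without KO 3 and KO 1, and 599 without WT 1 or without KO 2. Whichever library was left out, 78 rises and 7 falls passed the threshold.

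**Figure D1:**
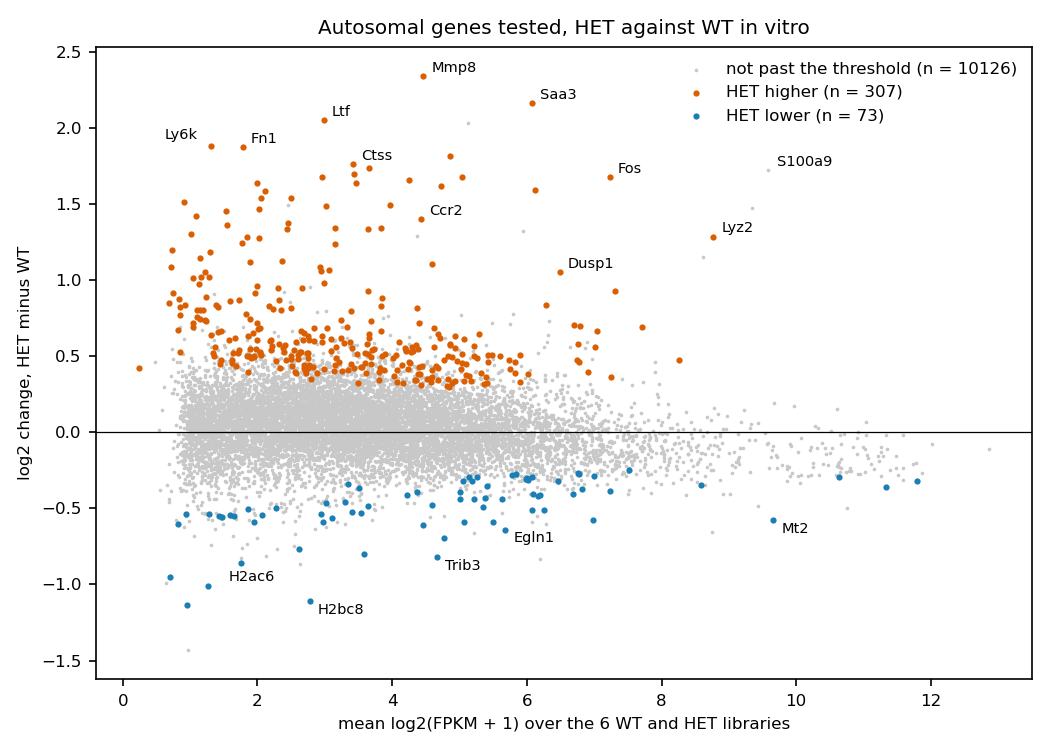
Each point is 1 of the 10506 autosomal genes, with its mean log2(FPKM + 1) over the 6 WT and HET libraries on the x axis and its log2 change, HET minus WT, on the y axis. Orange points are the 307 genes that rose, blue points the 73 that fell and grey points the rest. The rises reach 2.34 (Mmp8) and sit mainly at low levels, and the falls with a name reach -1.11 (H2bc8).

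Genes of secondary and tertiary neutrophil granules showed the highest list median. The neutrophil marker sum was higher in HET too, but it holds Camp, Ltf and Ngp, which are members of this list. Of 25 names, 22 were tested, 11 rose (50%, against 2.92% of all genes tested) and 0 fell. The median log2 change was 0.93 over the tested members. Mmp8, the neutrophil collagenase (chr9:7558429-7568486 in GRCm38), had the largest rise of all and was at 7.98, 9.09 and 9.27 FPKM in WT and 45.5, 52.3 and 48.1 in HET. Its HET libraries were all above its WT libraries (5.54-fold by mean FPKM, log2 change 2.34 ± 0.18 SE, limma adjusted p = 4.64e-05). Ltf, which encodes the iron-binding protein lactoferrin, was at 1.07, 4.02 and 4.66 FPKM in WT and 12.1, 16.9 and 16.8 in HET (log2 change 2.05, adjusted p = 0.0164). Chil3, a chitinase-like secreted protein gene, was at 8.45, 17.0 and 21 in WT and 38.5, 59.2 and 67.7 in HET (1.81, 0.0121). WT replicate 1 was the lowest library for both genes, and the groups did not overlap. The lysozyme gene Lyz2, made by neutrophils and macrophages, rose from 242, 278 and 320 FPKM to 591, 720 and 739 (1.29, 0.000491).

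The protease inhibitor genes Wfdc17 (9.71 ± 1.29 FPKM in WT and 32.9 ± 4.36 in HET, SD, n = 3 libraries) and Wfdc21 rose by 1.66 and 1.62 on the log2 scale (limma adjusted p = 2.44e-05 and 0.00119). The haptoglobin gene Hp and the integrin subunit gene Itgb2l rose by 0.84 and 1.28 (0.0107 and 0.00988). Not every late granule gene moved. Pglyrp1, a peptidoglycan recognition protein gene, was at 326 ± 56.6 FPKM in WT and 300 ± 27.7 in HET (adjusted p = 0.746). Ngp, a neutrophil granule protein gene, was at 122, 362 and 402 FPKM in WT and 400, 632 and 777 in HET, where HET replicate 1 overlapped WT replicate 3 (1.15, adjusted p = 0.149). The part of the neutrophil marker sum in these rises was not tested. Leaving out WT replicate 1 left 11 rises in the list with a median of 0.67, and leaving out HET replicate 3 left 4. Among the named members, Ltf and Chil3 lost their calls without HET 2 (adjusted p = 0.0698 and 0.0618) and HET 3 (0.0627 and 0.0542), and Chil3 also with only WT and HET in the fit (0.0588). Hp and Itgb2l lost theirs without HET 3 (0.0563 and 0.0545).

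Primary granule genes, made by earlier precursors, held no calls. Of 10 tested, 0 rose and 0 fell by limma (median -0.07), where 3.62% of all genes tested were called. Such a count in 10 genes is near that share. The myeloperoxidase gene Mpo was at 1729, 1658 and 1646 FPKM in WT and 1705, 1623 and 1677 in HET (log2 change -0.01, adjusted p = 0.982). The groups overlapped for Mpo and also for the elastase gene Elane (-0.10, 0.858) and the cathepsin G gene Ctsg (-0.11, 0.653). Among 12 neutrophil surface and signalling genes, 4 rose (33.3%, against 2.92% of all genes tested) and 0 fell (median 0.37). Stfa2l1, a stefin-like protease inhibitor gene with near-identical copies, rose from 5.2 ± 1.79 to 18.6 ± 3.01 FPKM (1.70, 0.00197). The receptor genes Csf3r (G-CSF), Cxcr2 (chemokines) and Il1r2 (a decoy for interleukin 1) rose by 0.57, 0.73 and 0.52 (0.0152, 0.0242 and 0.0396). These 3 calls ended without HET 2 or HET 3, with adjusted p of 0.0727 and 0.0762 for Csf3r, 0.0972 and 0.103 for Cxcr2 and 0.102 and 0.148 for Il1r2. That of Csf3r also ended once the length and GC trends were removed (0.0623), that of Cxcr2 without WT 3 (0.0583), and that of Il1r2 without WT 1, WT 2, HET 1, KO 1 or KO 3 (0.0569 to 0.118). Without HET 2 or HET 3, 1 of the 4 rises was left in this list.

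S100a8 and S100a9, whose products make up calprotectin in neutrophil cytosol, had some of the largest differences in level without passing the threshold. S100a9 was at 191, 564 and 696 FPKM in WT and 912, 1582 and 1883 in HET, with no overlap (log2 change 1.72 ± 0.45 SE, limma adjusted p = 0.063). S100a8 was at 202, 503 and 572 in WT and 714, 1211 and 1447 in HET (1.47 ± 0.39, 0.0666). Within WT the highest S100a9 library was several times the lowest, and the spread is part of the test. The median of the list they belong to was 0.15, -0.01 without WT 1 and 0.32 without WT 3. S100a9 passed without WT replicate 1 (1.15, 0.0448) and after quantile normalization (0.0412). In the same list of 14 S100 and stefin genes, 2 rose and 1 fell (14.3% and 7.14%, against 2.92% and 0.695% of all genes tested). The stefin genes Csta2 and Stfa3 rose (1.33 and 1.48, adjusted p = 0.00899 and 0.0265), and S100a4, a calcium-binding protein gene linked to cell motility, fell by 0.44 (0.0385). Cstdc4, a cystatin domain gene outside the list, was at 12.5, 15.8 and 26.4 FPKM in WT and 46.6, 61.5 and 67.6 in HET (1.68, 0.00406). The call of Stfa3 ended without WT 2, any HET library or KO 3 (0.0510 to 0.0950). That of S100a4 ended without WT 2, WT 3, HET 1, HET 3, KO 1 or KO 3 (0.0560 to 0.144).

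Among monocyte and macrophage identity genes, some were higher in HET cells. Of 32 names, 18 were tested, 8 rose (44.4%, against 2.92% of all genes tested) and 0 fell. The median log2 change was 0.63, and 1 of the 18 had passed the filter through HET alone. Ccr2, the receptor that draws monocytes out of the marrow, was at 13.6, 11.9 and 11.3 FPKM in WT and 31.7, 33.9 and 36.6 in HET. The groups were well apart (2.77-fold, log2 change 1.40 ± 0.10 SE, limma adjusted p = 2.44e-05). Csf1r, the receptor for macrophage colony-stimulating factor, rose from 3.18, 2.13 and 1.99 FPKM to 7.13, 8.27 and 8.0 (1.37, 0.000311). Trem2, a lipid-sensing receptor of macrophages, was at 0.804, 0.959 and 0.526 in WT and 3.71, 3.55 and 4.15 in HET (1.45, 0.00012).

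Mpeg1, a pore-forming macrophage gene, and Ms4a6c, a membrane protein gene of monocytes, rose by 1.34 and 0.98 on the log2 scale (limma adjusted p = 0.000176 and 0.00183). Abundant members did not pass. Tyrobp, the adaptor of many myeloid receptors, was at 282 ± 66.3 FPKM in WT and 283 ± 20.9 in HET (0.923), and Ly6c2, a marker of classical monocytes, was at 269 ± 60.1 and 288 ± 24.4 (0.804). The 4 monocyte markers summed to 299 to 373 FPKM in WT and 395 to 460 in HET and the 7 macrophage markers listed to 34.8 to 51.0 and 54.0 to 59.6, and the part of these sums in the rises was not tested. Markers of tissue macrophages were near 0: C1qa, C1qb and Mrc1 were at 0.115 FPKM or less in every WT and HET library. Leaving out WT replicate 1 gave 10 rises in this list, and leaving out HET replicate 3 gave 6.

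Lysosomal hydrolases gave single rises without a shift of the list median. Of 22 tested, 3 rose (13.6%, against 2.92% of all genes tested) and 0 fell. The median log2 change was 0.05, close to the 0.04 of all genes. The rises were those of Ctss, the cathepsin that processes antigen in myeloid cells (4.30, 3.79 and 6.71 FPKM in WT and 16.4, 20.5 and 19.4 in HET), Psap and Ctsl. Ctss rose by 1.76 on the log2 scale (limma adjusted p = 0.000257). Psap, the precursor gene of the saposins that help break down sphingolipids, rose by 0.69 (0.000288) and Ctsl by 0.34 (0.0223). The call of Ctsl ended without WT 2 or any HET library (0.0552 to 0.0950). The aspartyl protease gene Ctsd was at 418 ± 34.0 FPKM in WT and 465 ± 11.9 in HET (0.215).

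Myeloid C-type lectin and immunoglobulin-like receptors, through which these cells sense pathogens and each other, held 24 tested members. Of these, 11 rose (45.8%, against 2.92% of all genes tested) and 0 fell (median log2 change 0.72), and 4 of the 24 had passed the filter through HET alone. Pirb, an inhibitory receptor for MHC class I, was at 4.68, 6.10 and 7.28 FPKM in WT and 21.4, 22.9 and 22.2 in HET (1.74, limma adjusted p = 0.000202). Sirpa, the receptor for CD47, rose from 9.40, 8.97 and 9.04 to 14.7, 14.1 and 15.1 (0.62, 0.000968). The HET libraries of both genes lay close together and above all WT libraries. Clec5a, an activating lectin of myeloid cells, rose from 1.88 ± 0.326 to 4.59 ± 0.0609 FPKM (0.96, 0.000699), and Pilra, Cd300lf and Siglece rose by 1.19, 1.09 and 0.84 (0.000257, 0.00123 and 0.00316). The abundant lectin gene Clec12a was at 79.2 ± 1.05 FPKM in WT and 84.7 ± 9.70 in HET (0.809). Sirpb1c and Mcemp1, a membrane gene of mast cells and myeloid cells, were outside this list and rose by 1.64 each (0.000439 and 0.00209).

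**Figure D2:**
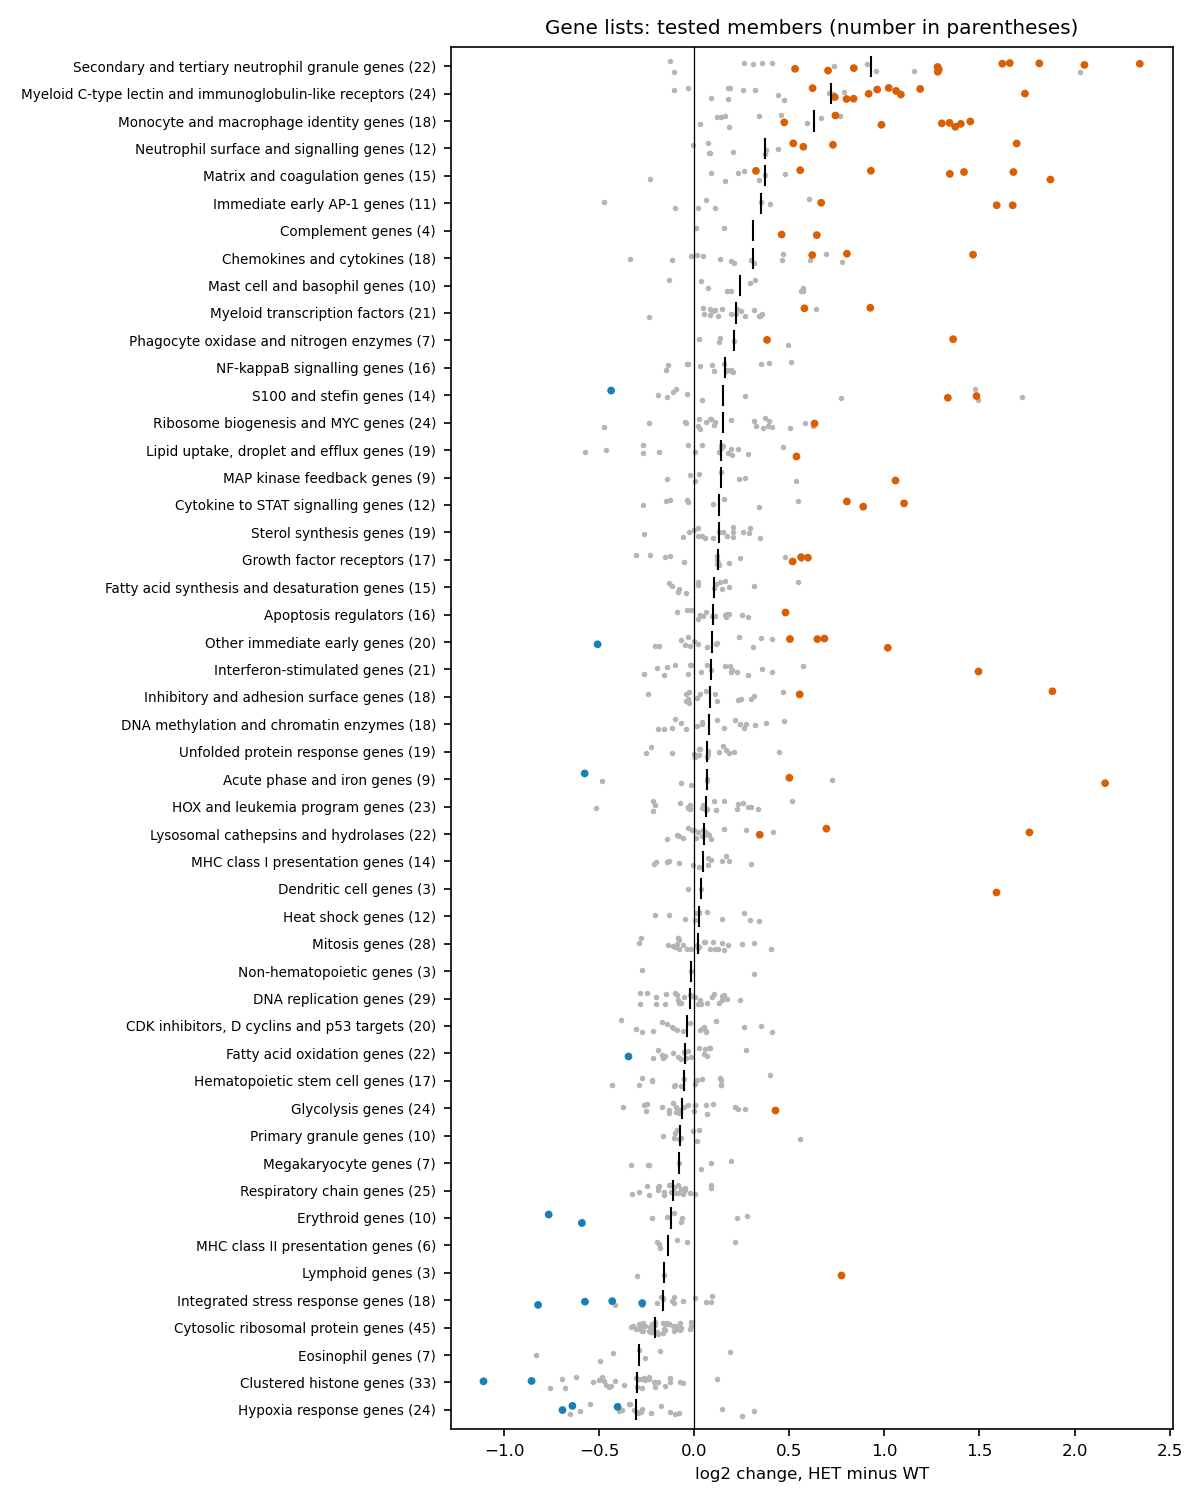
Each row is 1 of the 50 gene lists, with the number of tested members in parentheses and the log2 change, HET minus WT, of each member on the x axis. Orange points rose and blue points fell by limma, grey points did not pass, and the black bar is the median, which runs from 0.93 for late neutrophil granules to -0.31 for the hypoxia response.

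Extracellular matrix and coagulation genes rose in 7 of 15 tested members (46.7%, against 2.92% of all genes tested), with 0 falling. Their median log2 change was 0.37, and 1 member had passed the filter through HET alone. Fn1, the fibronectin gene, was at 0.809, 0.958 and 0.625 FPKM in WT and 4.99, 5.81 and 5.94 in HET (1.87, limma adjusted p = 9.57e-05). Without the HET libraries Fn1 would not have passed the filter on low values. F7, the gene of coagulation factor VII, was at 3.67, 2.55 and 3.97 in WT and 10.6, 13.9 and 14.7 in HET (1.68, 9.57e-05). Thbs1, the thrombospondin 1 gene, had the highest level of these and rose from 118, 129 and 97.6 to 222, 199 and 236 (0.93, 0.00037). The groups of all 3 genes were apart. The proteoglycan gene Vcan and Tgfbi, which encodes a matrix protein induced by TGF-beta, rose by 1.42 and 1.34 (0.00012 and 9.57e-05), and the urokinase receptor gene Plaur by 0.56 (0.0147). The call of Plaur ended without HET 1 and HET 3 (0.0542 and 0.0749). Anxa1, an anti-inflammatory annexin gene, was at 109 ± 34.7 FPKM in WT and 147 ± 7.93 in HET (0.159).

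Among 18 chemokine and cytokine genes, 3 rose (16.7%, against 2.92% of all genes tested) and 0 fell (median log2 change 0.31). The median was 0.02 without WT 1, with 1 fall, and 0.53 without WT 3. Ccl2, the ligand of Ccr2, was at 1.18, 1.33 and 1.89 FPKM in WT and 4.56, 5.33 and 7.77 in HET (1.47, limma adjusted p = 0.00134). Il1rn, the interleukin 1 receptor antagonist gene, rose from 0.687 ± 0.272 to 1.94 ± 0.492 FPKM (0.80, 0.0156) and Tnfsf14, a TNF family ligand gene, by 0.62 (0.0162). Their calls ended without HET 3 (0.0723 and 0.0711), and that of Tnfsf14 also without WT 2 and HET 2 (0.0655 and 0.0794). The list held 1 rise without HET 3 and 2 without WT 2 or HET 2. The abundant chemokine gene Ccl6 spanned 87.7 to 356 FPKM in WT and 256 to 301 in HET, so the groups overlapped (0.546).

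Signalling genes downstream of cytokines moved singly. Of 12 cytokine to STAT genes, 3 rose (25%, against 2.92% of all genes tested) and 0 fell (median log2 change 0.13). Socs3, the feedback inhibitor of STAT3 signalling, was at 11.1, 16.6 and 19.8 FPKM in WT and 28.0, 35.3 and 40.7 in HET (1.10, limma adjusted p = 0.00654). The receptor chain genes Il6st and Il6ra rose by 0.89 and 0.80 (0.0246 and 0.0411), with calls that ended without WT 2, WT 3 or any HET library (0.0565 to 0.0994 and 0.0701 to 0.148). That of Il6ra also ended without KO 1 and KO 3 (0.0547 and 0.0658). Of 16 NF-kappaB genes, 0 rose and 0 fell by limma, where 3.62% of all genes tested were called. Their median was 0.16, and -0.02 with the length and GC trends removed. For 6 of the 16, all HET libraries lay above all WT libraries, against 17.4% of all genes tested. Nfkbia, the inhibitor that NF-kappaB itself induces, was at 50.4 ± 13.3 FPKM in WT and 50.7 ± 6.24 in HET (0.939).

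Effector genes of phagocytes rose in 2 of 7 tested members (28.6%, against 2.92% of all genes tested). Nos2, the inducible nitric oxide synthase gene, was at 1.05, 0.617 and 0.805 FPKM in WT and 3.00, 4.11 and 3.97 in HET (log2 change 1.36, limma adjusted p = 0.000176). Nos2 too would not have passed the filter on low values without the HET libraries. Ncf4, a subunit gene of the NADPH oxidase, rose by 0.38 (0.0291), a call that ended without WT 2 or any HET library (0.0740 to 0.114). Of 4 complement genes tested, 2 rose (50%, against the same 2.92%). Itgb2, the shared chain of the complement receptors, rose by 0.46 (0.0111) and C3 by 0.64 (0.0359). The call of Itgb2 ended without HET 3 (0.0527), and that of C3 without WT 2, WT 3, any HET library or KO 1 (0.0502 to 0.133).

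Interferon and antigen presentation lists held 1 call, a rise in the interferon list (4.76%, against 2.92% of all genes tested). Among 21 interferon-stimulated genes 1 rose, Ifitm6, from 8.55 ± 2.50 to 25.2 ± 1.75 FPKM (log2 change 1.49, limma adjusted p = 0.00119), while its relatives Ifitm1, Ifitm2 and Ifitm3 did not pass (adjusted p of 0.589 to 0.928). Without WT 3 this list held 3 rises. Of 14 MHC class I and 6 MHC class II presentation genes, 0 were called by limma, where 3.62% of all genes tested were called. Their medians were 0.05 and -0.14. The acute phase gene Saa3, a member of the serum amyloid family (chr7:46711998-46719615 in GRCm38), was at 25.4, 27.1 and 42.6 FPKM in WT and 126, 145 and 154 in HET (2.16, 0.00963). The HET libraries were several times any WT library. Slc40a1, the iron exporter ferroportin, rose by 0.50 (0.0404), and its call ended without WT 1, WT 3, any HET library, KO 1 or KO 3 (0.0570 to 0.144).

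**Figure D3:**
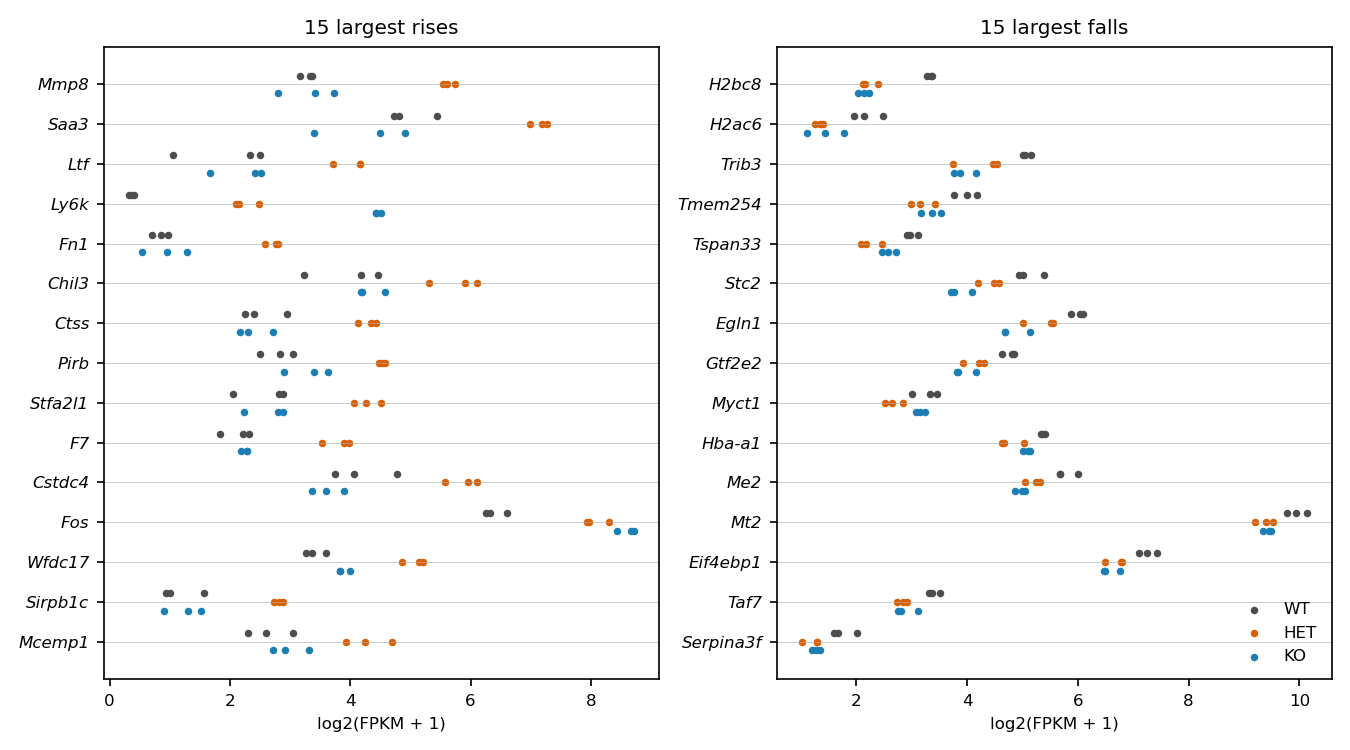
Points are single libraries of WT (grey), HET (orange) and KO (blue), with log2(FPKM + 1) on the x axis, for the 15 largest called rises (left) and the 15 largest called falls (right) among named genes with a mean of at least 2 FPKM in WT or HET. Genes were drawn only if their HET and WT points do not overlap, and the KO points of Ly6k and Fos lie above those of HET.

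Immediate early genes of the AP-1 family rose in part. Of 11 tested, 3 rose (27.3%, against 2.92% of all genes tested) and 0 fell. The median log2 change was 0.35, but 0.13 without WT 1 and 0.17 with the length and GC trends removed. Fos was at 75.3, 96.1 and 79.2 FPKM in WT and 250, 245 and 313 in HET (3.22-fold, 1.67 ± 0.12 SE, limma adjusted p = 2.44e-05). Fosb was at 39.2, 50.3 and 30.1 in WT and 118, 103 and 140 in HET (1.59, 0.000249). All HET libraries of both genes were above the WT libraries. Their partner genes did less: Junb rose from 81.3, 114 and 121 to 162, 160 and 176 (0.67, 0.0162), while Jun was at 181 ± 7.81 FPKM in WT and 195 ± 12.7 in HET (0.534) and Jund at 68.9 ± 18 and 86.3 ± 9.92 (0.212). The call of Junb ended without each HET library (0.0527 to 0.0782), and after the length and GC trends were removed (0.0529).

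Of 20 other immediate early genes, 4 rose and 1 fell (20% and 5%, against 2.92% and 0.695% of all genes tested). Their median log2 change was 0.09. Without WT 1 the balance turned, to 3 rises and 5 falls (median -0.02). The list held 1 rise without HET 2 or HET 3 and after the length and GC trends were removed (median -0.03), and 2 without WT 2, HET 1 or KO 3 and after quantile normalization. Klf4, a transcription factor gene of monocyte differentiation, went from 0.649, 0.851 and 0.609 FPKM to 2.46, 2.10 and 2.80 (1.02, limma adjusted p = 0.00134). Ier5, Sgk1 and the nuclear receptor gene Nr4a1 rose by 0.68, 0.65 and 0.50 (0.0246, 0.0444 and 0.0442). These 3 calls ended after the length and GC trends were removed (0.103, 0.0791 and 0.142) and without HET 2 or HET 3 (0.0858 and 0.107 for Ier5, 0.101 and 0.152 for Sgk1, 0.106 and 0.154 for Nr4a1). Those of Sgk1 and Nr4a1 also ended without WT 2, HET 1 or KO 3, that of Nr4a1 without WT 1 or WT 3 and that of Sgk1 without KO 1 (0.0540 to 0.104). Ppp1r15a, which lets translation resume after stress, fell from 90.2, 90.3 and 90.9 to 64.4, 63.4 and 61.9, with very little spread in either group (-0.51 ± 0.06 SE, 0.000968). Egr1, an early growth response gene, was at 150, 349 and 354 FPKM in WT and 258, 264 and 269 in HET, so the groups overlapped (0.995). Without WT replicate 1 Egr1 was called lower (-0.41, 0.0266). Dusp1, the phosphatase that switches off MAP kinases, rose from 46.4, 73.6 and 67.6 to 121, 114 and 153 (1.05, 0.00379). It was the sole call among 9 MAP kinase feedback genes (11.1%, against 3.62% of all genes tested).

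Promoter sequence is shown for Fos and for the called member with the smallest p of the granule, macrophage and chemokine lists that the promoter table holds, since these genes rose in the same libraries. The lines give the 250 bases before the start of transcription from RefSeq on GRCm38.p6, 5′ to 3′ on the plus strand, on which all 4 genes lie, with matches to the searched motifs in capitals.
Fos, chr12:85473640-85473889: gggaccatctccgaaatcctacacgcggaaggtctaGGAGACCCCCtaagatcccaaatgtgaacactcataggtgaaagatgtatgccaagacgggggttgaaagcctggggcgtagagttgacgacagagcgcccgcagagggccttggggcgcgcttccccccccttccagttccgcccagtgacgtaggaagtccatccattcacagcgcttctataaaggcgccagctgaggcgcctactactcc
Wfdc17, chr11:83703806-83704055: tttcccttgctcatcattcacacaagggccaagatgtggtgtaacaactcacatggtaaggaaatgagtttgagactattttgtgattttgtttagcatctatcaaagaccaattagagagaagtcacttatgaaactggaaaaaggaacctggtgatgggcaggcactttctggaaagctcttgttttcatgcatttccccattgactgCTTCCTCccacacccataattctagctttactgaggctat
Ccr2, chr9:124101933-124102182: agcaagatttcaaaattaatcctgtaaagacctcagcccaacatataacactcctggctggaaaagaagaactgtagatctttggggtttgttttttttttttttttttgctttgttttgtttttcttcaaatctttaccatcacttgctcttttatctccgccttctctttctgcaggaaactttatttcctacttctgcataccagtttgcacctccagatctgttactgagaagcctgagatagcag
Il1rn, chr2:24336610-24336859: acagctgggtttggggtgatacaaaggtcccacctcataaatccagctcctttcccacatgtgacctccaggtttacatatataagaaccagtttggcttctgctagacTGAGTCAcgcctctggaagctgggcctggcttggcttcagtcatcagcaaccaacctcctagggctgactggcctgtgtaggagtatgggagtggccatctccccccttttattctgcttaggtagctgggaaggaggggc

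The motifs were searched on both strands: the PU.1 motif GAGGAAG, the C/EBP motif TTGCNNAA, the AP-1 motif TGANTCA, the cyclic AMP response element TGACGTCA, and by name the CArG box of serum response and the NF-kappaB site. Fos matched the NF-kappaB site 214 to 205 bases before its start, on the minus strand. Wfdc17 matched the PU.1 motif, on the minus strand, 40 to 34 bases before its start. Il1rn, for which the table gives 3 starts and the first is shown, matched the AP-1 motif 141 to 135 bases before it, and Ccr2 matched none of the motifs in this window. The PU.1 motif was present in 10.4% of all 27025 windows of this length, 11% of those of tested genes, 17.9% of the 252 windows of genes that rose and 8.77% of the 57 windows of genes that fell. In the same order the shares were 9.55, 7.42, 11.1 and 10.5% for C/EBP, 6.87, 4.37, 5.95 and 1.75% for AP-1 and 7.01, 8.57, 7.14 and 7.02% for NF-kappaB. They were 1.62, 2.93, 1.98 and 5.26% for the cyclic AMP response element, and 1.40, 1.05, 1.19 and 0% for the CArG box, whose 0% is a count of 0 in 57 windows. A match describes the letters alone.

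Transcription factors and growth factor receptors of the myeloid line gave 2 rises among 21 and 3 among 17 tested genes, with 0 falls. These rises are 9.52% and 17.6%, against 2.92% of all genes tested. Cebpd and Cebpa, C/EBP family factors of granulocyte and monocyte development, rose from 8.16 ± 1.88 to 16.2 ± 1.60 FPKM and from 88.7 ± 15.8 to 133 ± 23.7 (log2 changes 0.93 and 0.58, limma adjusted p = 0.00988 and 0.0391). The GM-CSF receptor genes Csf2ra and Csf2rb rose by 0.60 and 0.56 (0.00912 and 0.0411), and the TNF receptor gene Tnfrsf1b by 0.52 (0.0242). Removing the length and GC trends ended the calls of Cebpd, Cebpa, Csf2rb and Tnfrsf1b (0.0610, 0.117, 0.0783 and 0.118). Leaving out HET 3 ended all 5 (0.0538 for Cebpd, 0.0823 for Cebpa, 0.0538 for Csf2ra, 0.0994 for Csf2rb and 0.104 for Tnfrsf1b). Leaving out HET 1 ended those of Cebpd (0.0519), Cebpa (0.129), Csf2rb (0.157) and Tnfrsf1b (0.0661), and leaving out HET 2 those of Cebpa, Csf2rb and Tnfrsf1b (0.0625, 0.0903 and 0.0792). Without WT 1 or WT 2 the calls of Cebpa and Csf2rb ended (0.0604 to 0.0999), without WT 3 those of Csf2rb and Tnfrsf1b (0.103 and 0.0650), without KO 3 those of Cebpa and Csf2rb (0.0641 and 0.0515) and without KO 1 that of Cebpa (0.0550). Spi1, which encodes the master myeloid factor PU.1, was at 92.9 ± 15.2 FPKM in WT and 108 ± 11.4 in HET (0.317).

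Stem cell and leukemia lists had no calls. Of 17 hematopoietic stem cell genes, 0 were called by limma (median log2 change -0.06), where 3.62% of all genes tested were called. All HET libraries lay above WT for 1 gene and below WT for 6, against 17.4% and 11.7% of all genes tested. Cd34, a surface marker of stem and progenitor cells, was at 108, 90.3 and 90.8 FPKM in WT and 72.3, 82.6 and 83.7 in HET (-0.27, adjusted p = 0.156). Of 23 HOX and leukemia program genes, 0 were called (median 0.06). Lists of other lineages held at most 2 calls each. The 3 erythroid markers summed to 125 to 152 FPKM in WT and 84.3 to 102 in HET, and the part of that sum in the erythroid falls was not tested. Among 10 erythroid genes 2 fell (20%, against 0.695% of all genes tested). Tspan33, a tetraspanin gene, fell from 7.05 ± 0.588 to 3.75 ± 0.674 FPKM (-0.77, 0.00543). The alpha globin gene Hba-a1, which has a near-identical copy, fell from 40.3 ± 1.23 to 26.6 ± 4.50 (-0.59, 0.00988, and 0.0542 without HET 3). Eosinophil, mast cell and megakaryocyte lists (7, 10 and 7 genes) had 0 calls, although the eosinophil granule gene Prg2 spanned 1748 to 2273 FPKM in WT and 1093 to 2115 in HET. In HET, Prg2 was high in replicate 1 alone, and without that library it was called lower (-0.76, 0.0477). The eosinophil list then held 2 falls and its median went from -0.29 to -0.65. The surface proteoglycan gene Sdc1, a plasma cell marker, rose from 0.384 ± 0.165 to 1.36 ± 0.132 FPKM (0.77, 0.0107, and 0.0521 without HET 2). Jchain, the other plasma cell marker listed, was at 0.175 FPKM or less in every WT and HET library. Bst1, a surface enzyme gene in the dendritic cell list, rose from 1.48 ± 0.0665 to 6.51 ± 1.03 (1.59, 0.000968).

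**Figure D4:**
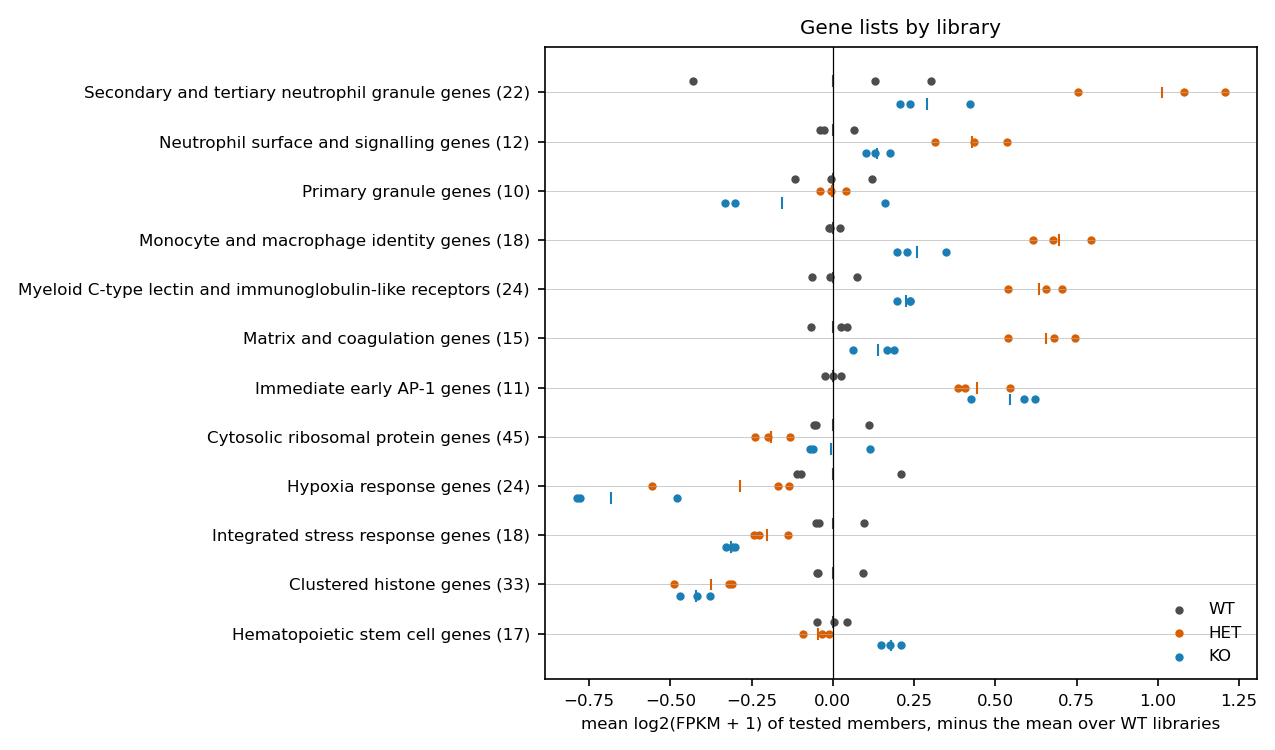
Points are single libraries of WT (grey), HET (orange) and KO (blue), and bars are genotype means. The x axis is the mean log2(FPKM + 1) over the tested members of a list minus its mean over the WT libraries. HET libraries lie right of the WT and KO libraries for the neutrophil granule, neutrophil surface, monocyte and macrophage, receptor and matrix lists, and WT replicate 1 is the low grey point of the granule list.

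The falls were smaller and spread over other functions. The largest named falls were those of 2 histone genes. Of 33 clustered histone genes tested, these 2 fell (6.06%, against 0.695% of all genes tested) and 0 rose (median log2 change -0.30). H2bc8 was at 8.64, 9.29 and 9.23 FPKM in WT and 3.34, 3.47 and 4.22 in HET (-1.11 ± 0.10 SE, limma adjusted p = 0.00012), and H2ac6 was at 2.89, 4.57 and 3.39 in WT and 1.65, 1.38 and 1.54 in HET (-0.86, 0.0203). The groups of both genes were apart. Histone genes have near-identical copies, which makes their single values uncertain. The call of H2ac6 ended without WT 2 or any HET library (0.0608 to 0.0813). DNA replication and mitosis genes (29 and 28) had 0 calls by limma, where 3.62% of all genes tested were called. Their medians were -0.02 and 0.02. The histone list held 8 falls without WT 1, 3 without WT 3 or KO 2, and 1 without any 1 of the HET libraries.

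Genes of the hypoxia response fell in 3 of 24 tested members (12.5%, against 0.695% of all genes tested), with 0 rising. This list had the lowest median of all (log2 change -0.31), just below the -0.30 of clustered histones. The histone median was the lower of these after quantile normalization (-0.38 against -0.35) and without WT 1 (-0.35 against -0.25). For 15 of the 24, all HET libraries lay below all WT libraries, against 11.7% of all genes tested. Egln1, the prolyl hydroxylase that marks hypoxia-inducible factors for degradation, was at 67.1, 58.0 and 64.5 FPKM in WT and 31.3, 45.9 and 44.9 in HET (-0.64, limma adjusted p = 0.0425). The hormone gene Stc2 was at 40.9, 31.4 and 29.8 in WT and 17.4, 21.5 and 23 in HET (-0.69, 0.0231), and the mitochondrial gene Higd1a fell by 0.40 (0.0209). HET replicate 1 was the lowest of the WT and HET libraries for all 3. Bnip3, a mitophagy receptor gene, was at 539 ± 61.4 FPKM in WT and 348 ± 85.4 in HET (0.0781), and passed without KO replicate 2 (0.0440). The 3 calls ended without HET 1 (0.131, 0.0925 and 0.0746 in the order Egln1, Stc2, Higd1a) and without HET 3 (0.0810, 0.0507 and 0.0820). Those of Egln1 and Stc2 ended without WT 2 (0.0772 and 0.0517) and HET 2 (0.0663 each), and that of Egln1 also without WT 1, WT 3, KO 1 or KO 3 (0.0537 to 0.119) and after quantile normalization (0.0560). The list therefore held 0 falls without HET 1 or HET 3, 1 without WT 2 or HET 2, and 5 without KO 2.

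Amino acid and stress response genes fell in 4 of 18 tested members (22.2%, against 0.695% of all genes tested), with 0 rising. Their median log2 change was -0.16, but -0.09 without WT 1. Rescaling to TPM left 2 falls and a median of -0.10. Trib3, a pseudokinase that restrains this response, was at 34.8, 31.2 and 32.2 FPKM in WT and 12.5, 22.3 and 21 in HET (-0.82, limma adjusted p = 0.0292). Eif4ebp1, a brake on translation initiation, was at 151, 137 and 173 in WT and 89.0, 111 and 108 in HET (-0.58, 0.0196). The mitochondrial folate enzyme gene Mthfd2 and the asparagine synthetase gene Asns fell by 0.43 and 0.27 (0.0156 and 0.0403). Atf4, the transcription factor of the response, was at 253 ± 24.8 and 209 ± 6.21 FPKM (0.0996). All 4 calls ended without HET 3 (0.0545 to 0.132). Those of Mthfd2, Asns and Trib3 also ended without WT 2 (0.0529, 0.115 and 0.0720), those of Eif4ebp1, Asns and Trib3 without WT 3 (0.0507 to 0.0936), and those of Mthfd2, Eif4ebp1 and Asns without HET 1 (0.0564, 0.0746 and 0.1). Without HET 2 or KO 1 that of Asns ended (0.101 and 0.0721), and without KO 3 those of Asns (0.0714) and Trib3, which then lay just past the threshold. Without HET 3 the list held 0 falls, and without WT 2, WT 3 or HET 1 it held 1.

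Cytosolic ribosomal protein genes had a lower median in HET without single calls. Of 45 tested, 0 were called by limma, where 3.62% of all genes tested were called, and the median log2 change was -0.21. For 37 of them all HET libraries lay below all WT libraries, against 11.7% of all genes tested. All genes with names of Rpl or Rps and a digit, a set other than this list, made up 26.4 to 27.9% of total FPKM in WT and 23.6 to 25.3% in HET. Rpl32 was at 3871, 4029 and 4456 FPKM in WT and 3171, 3698 and 3378 in HET (-0.27, adjusted p = 0.0836). The median of the list was -0.04 after quantile normalization and -0.13 after rescaling to TPM, where 3 members were called lower. Of the metallothionein genes, which encode metal-binding proteins, Mt2 fell from 982, 874 and 1123 FPKM to 588, 732 and 674 (-0.58, 0.0114), a call that ended without HET 1 and HET 3 (0.0521 and 0.0538), and Mt1 was at 823 ± 124 and 588 ± 78.6 (0.0703).

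Further named falls were those of Tmem254 (log2 change -0.80, limma adjusted p = 0.0103), Gtf2e2, a subunit gene of the general transcription factor TFIIE (-0.61, 0.0206), and Myct1, a surface protein gene of stem and endothelial cells (-0.59, 0.0265). The malic enzyme gene Me2 fell by 0.59 (0.0119), Taf7, a TFIID subunit gene, by 0.56 (0.0193) and the serpin gene Serpina3f by 0.56 (0.0404). These calls rested on single libraries. That of Tmem254 ended without HET 3 (0.0545), that of Me2 without HET 1 (0.0521) and that of Taf7 without HET 2 and HET 3 (0.0705 and 0.0888). Those of Gtf2e2 and Myct1 ended without WT 3 (0.0530 and 0.0678), HET 1 (0.0712 and 0.104) and HET 3 (0.0604 and 0.0994). That of Serpina3f ended without WT 2, WT 3, any HET library, KO 1 or KO 3 (0.0557 to 0.140).

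Metabolic lists, including those closest to the function of Fabp4, held 0 or 1 call each. The called share was 5.26% for lipid uptake, 4.55% for fatty acid oxidation and 4.17% for glycolysis, near the 3.62% of all genes tested. Of 19 genes of lipid uptake, droplets and efflux, 1 rose: Dgat1, the enzyme of triglyceride synthesis, from 13.7, 14.9 and 18.2 FPKM to 21.3, 22.2 and 25.3 (log2 change 0.53, limma adjusted p = 0.0267). That call ended without WT 2 or any HET library (0.0573 to 0.116) and after the length and GC trends were removed (0.0760). Of 22 fatty acid oxidation genes 1 fell, the dehydrogenase gene Hadh, from 46.8 ± 3.96 to 36.4 ± 1.16 FPKM (-0.35, 0.0462). The call of Hadh ended with any WT or HET library or with KO 1 or KO 3 left out (0.0536 to 0.144). Fatty acid synthesis and sterol synthesis (15 and 19 genes) had 0 calls by limma, with medians of 0.10 and 0.13. Of 24 glycolysis genes 1 rose, the regulator Pfkfb4 (0.42, 0.0410), whose call ended without any library but KO 2 (0.0509 to 0.151), while the enolase gene Eno1 was at 1931 ± 31.2 and 1936 ± 34.1 FPKM. Respiratory chain, unfolded protein response and heat shock lists (25, 19 and 12 genes) had 0 calls and medians of -0.11, 0.07 and 0.03.

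The remaining lists held at most 2 calls each. The called share was 4.17% for ribosome biogenesis and MYC, 6.25% for apoptosis regulators and 11.1% for surface genes, against 3.62% of all genes tested. Of 24 ribosome biogenesis and MYC genes 1 rose (median log2 change 0.15): Polr1b, a subunit gene of RNA polymerase I, from 5.16, 5.37 and 5.24 FPKM to 11.2, 7.95 and 7.32 (0.63, limma adjusted p = 0.0397). Of 16 apoptosis regulators 1 rose, the BH3-only gene Bmf, from 1.34 ± 0.151 to 2.27 ± 0.387 FPKM (0.48, 0.0477). Both calls ended after quantile normalization (0.0661 and 0.0648) and after the length and GC trends were removed (0.0684 and 0.148). Leaving out any WT or HET library, KO 1 or KO 3 ended that of Polr1b (0.0529 to 0.117), and WT 2, WT 3, HET 2, HET 3, KO 1 or KO 3 that of Bmf (0.0720 to 0.154). Of 18 inhibitory and adhesion surface genes 2 rose, Ly6k, described with the KO libraries, and Vsir, an inhibitory receptor gene of the B7 family, from 26.1, 24 and 22.4 FPKM to 32.3, 35.3 and 40.6 (0.55, 0.00988). The call of Vsir ended without HET 3 (0.0527) and after trend removal (0.0503). Lists of CDK inhibitors, D cyclins and p53 targets, of chromatin enzymes and of non-hematopoietic genes (20, 18 and 3 genes) had 0 calls by limma and medians of -0.04, 0.08 and -0.02. The cell cycle inhibitor gene Cdkn1a was at 178 ± 9.85 FPKM in WT and 144 ± 15.4 in HET (0.0629), and without WT 1 its list held 2 falls.

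Homozygous cells were compared with HET in the same fit, where the HET libraries are shared with the comparison above. KO against HET, 204 autosomal genes were called (1.94%), 62 higher in KO (0.59%) and 142 lower (1.35%). Of the 307 genes that rose in HET, 80 were lower in KO than in HET and 4 were higher, and of the 73 that fell, 6 were higher in KO and 0 lower. The genes were chosen by their values in the same HET libraries, which by itself favours KO values on the WT side of HET, and 16 of the 80 had passed the filter through HET alone. These counts and the KO values of the genes named here are therefore a description. The count of KO against HET calls among the 380 genes was 90 in all, and 59 and 55 without HET 2 and HET 3.

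The granule, macrophage and matrix genes were among those lower in KO than in HET. In the KO libraries Mmp8 was at 12.3, 5.96 and 9.71 FPKM, within reach of its WT values (KO minus HET -2.31, limma adjusted p = 6.22e-05, and KO minus WT 0.03). Fn1 was at 1.43, 0.460 and 0.940 in KO (KO minus HET -1.79, adjusted p = 0.000193, and KO minus WT 0.09). Csf1r was at 3.35, 2.38 and 2.30 (-1.27, 0.000727, and 0.10). Nos2, at 0.312, 0.297 and 0.144 in KO, was below its WT values of 0.617 to 1.05 (KO minus HET -1.90, adjusted p = 2.37e-05, and KO minus WT -0.54, adjusted p = 0.0502). The share called lower in KO than in HET was 1.35% of all genes tested. Of the lists, 8 of 22 late granule genes, 10 of 24 receptors, 5 of 18 monocyte and macrophage genes and 5 of 15 matrix genes were lower in KO than in HET, with 0 higher. Of these, 4 receptors, 1 monocyte and macrophage gene and 1 matrix gene had passed the filter through HET alone, where a KO value below HET was built in. Fn1 and Nos2 also needed the HET libraries to pass the filter, which favours a KO value below HET. Xist and the Y genes also separated KO from HET, as given above, and genotype and sex mix cannot be told apart here either. Ccr2 stayed nearer to HET, at 27.9, 23.1 and 27.2 FPKM in KO (KO minus HET -0.38, adjusted p = 0.0813). The hypoxia list went further down in KO, with 3 of 24 members lower than in HET and a median of -0.45. The ribosomal protein list had a median of 0.21 for KO minus HET, with 1 member higher.

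Fos and Ly6k ran the other way. Ly6k, which encodes a GPI-anchored protein of the Ly6 family (chr15:74796874-74799968 in GRCm38), was at 0.280, 0.255 and 0.328 FPKM in WT, 3.46, 4.61 and 3.29 in HET and 20.7, 21.7 and 20.6 in KO. The 3 genotypes were fully apart (HET minus WT 1.88, limma adjusted p = 1.6e-05, and KO minus HET 2.21, adjusted p = 2.66e-06). Fos was at 347, 420 and 403 FPKM in KO, above every HET library (KO minus HET 0.54, adjusted p = 0.0402). Capn11, a calpain gene chosen after its values were seen, and Nr4a1 were the other genes that rose in HET and were higher again in KO. For falls, H2bc8 was at 3.08, 3.69 and 3.42 in KO, level with HET (KO minus HET -0.09, adjusted p = 0.839), while Ppp1r15a was at 78.5, 79.7 and 84.7 in KO, between HET and WT (KO minus HET 0.35, adjusted p = 0.0121).

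Changes moved with transcript length and GC content. The median transcript length was 2564 bases for genes that rose, 1276 for genes that fell and 2040 for all, and median GC content was 55.1, 49.4 and 51.0%. Genes were split into 10 bins of near-equal size. From the shortest to the longest bin the median log2 change went from -0.04 to 0.13, and from the lowest to the highest bin in GC from -0.01 to 0.14. For KO minus WT, which shares the WT libraries, the same medians went from 0.00 to 0.10 and from 0.01 to 0.10. With both trends removed from each library's values, an alternative chosen after the data were seen, 275 genes were called and 203 of them were among the 380. Rises then stood at 13 of 22 late granule genes, 11 of 24 receptors, 9 of 18 monocyte and macrophage genes and 6 of 15 matrix genes, with medians of 0.91, 0.73, 0.60 and 0.31. Falls stood at 4 of 24 hypoxia genes and 4 of 18 stress response genes (medians -0.35 and -0.25).

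**Figure D5:**
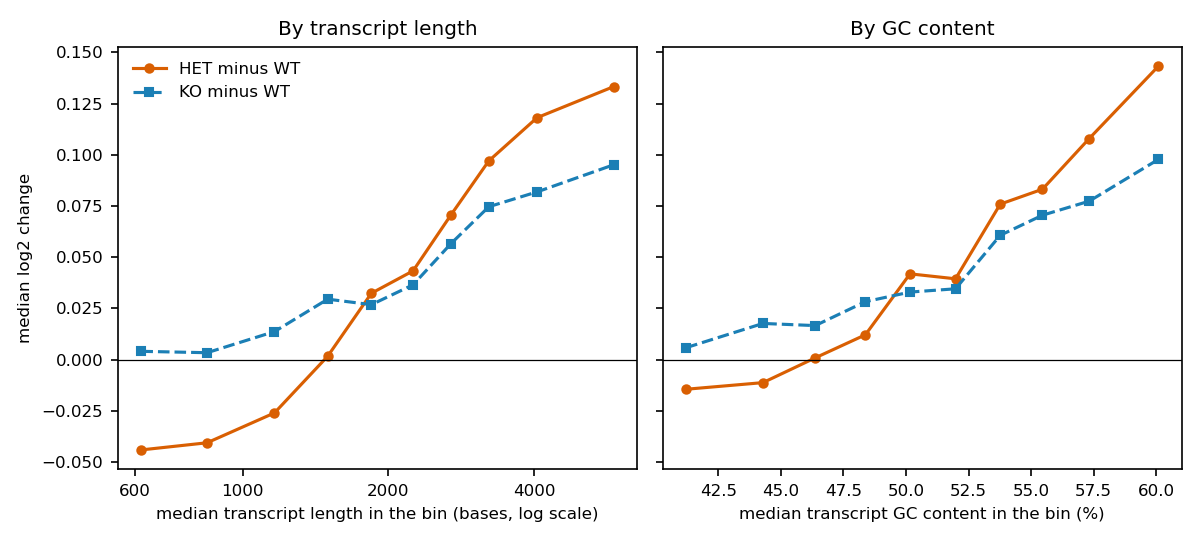
Points are 10 bins of the tested genes by transcript length (left, bases on a log scale) and by GC content (right, %), with the median log2 change of the bin on the y axis, for HET minus WT (orange) and KO minus WT (blue). The HET medians climb from -0.04 to 0.13 with length and from -0.01 to 0.14 with GC content, and the KO medians climb less.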

How the data were processed

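RNA of 9 in vitro libraries was sequenced (TRIzol extraction, VAHTS Universal V6 kit, per the labels' protocols). The values are FPKM per gene, deposited by the authors. The build is mm10 per the submitters' processing notes, and what aligned and counted the reads, on which annotation and strand, was not given in the sources used here, so genes with near-identical copies are uncertain. Genes with FPKM of at least 1 in 3 of 9 libraries were kept, and log2(FPKM + 1) was fitted with limma 3.58.1 (R 4.3.3, trend and robust moderation, a mean per genotype over all 9 libraries). P-values were adjusted by Benjamini-Hochberg over 10877 genes, with a threshold of 0.05. For low genes, log2(FPKM + 1) shrinks the fold change. Positions and promoters came from RefSeq GRCm38.p6, and length and GC from GENCODE transcripts. Fabp4 was tested by an exact permutation test.

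Named genes are the 15 largest rises and falls called without overlap at a mean FPKM of at least 2, up to 6 called members of a list by smallest p, and up to 3 uncalled members with the highest WT level. Predicted genes, pseudogenes and receptor segments entered counts without being named, and 1 gene that met the rule is not reported here. The genes, lists and tests were chosen with earlier results of these data known. The sorted bone marrow libraries were not used here. Alternatives were other pseudocounts, filters and scalings, a replicate block, fits on fewer libraries, and removal of length and GC trends.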

Additional observations from a re-analysis of the deposited data

How the results depend on the processing

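No called gene reversed direction in any of 20 alternatives, and 84 genes (77 up, 7 down) were called in every alternative that tested them. Without the filter on low values 233 genes were called (200 up, 33 down), and with only WT and HET in the fit 246 (208 up, 38 down). Quantile normalization gave 158 falls, and a filter at FPKM of 5 left 50 calls of KO against HET among the called genes. Removing the length and GC trends, chosen after the data were seen, gave 157 rises and 118 falls. Leaving out 1 library at a time gave 99 to 599 calls, 87 to 460 rises, 12 to 144 falls and 55 to 116 calls of KO against HET, and a Fabp4 difference of -0.159 to 0.00624 FPKM. Where a library is left out, its group has 2 libraries. Replicate numbers did not pair the samples: same-numbered WT and HET libraries had correlations of -0.17, -0.14 and -0.26. With the replicate block 220 genes were called (190 up, 30 down), and Ngp, S100a8 and S100a9 passed (adjusted p = 0.0442, 0.00879 and 0.00684). Of 93 named calls, 30 were lost without the filter, 18 with the replicate block, 17 with only WT and HET, 14 after trend removal and 49 without HET replicate 3. The cause of these changes was not tested. FPKM carry no counting error of their own, and the estimated depth bears on low genes first.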
